A study of Mus musculus with 4 samples.

Results

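The 32 genes described here encode the glutathione and thioredoxin systems, the enzymes that remove superoxide and peroxides, and NRF2 with its inhibitor KEAP1. They were chosen by name, and each was read from the brightest of its array probe sets that carry a single gene symbol, by the mean of all arrays. Of the 32 genes, 29 had such a probe set, out of 18193 genes in all. Prdx1, Prdx5 and Prdx6 were not analysed here. All 29 reached the limit on dim genes, which was the median over all probe sets (97.4 intensity units), as did 10872 genes in all. ILC2, the group 2 innate lymphoid cells, make type 2 cytokines without rearranged antigen receptors. Their transcripts were read on Affymetrix arrays from C57BL/6 mice, with 2 arrays from Ets1-deleted mice and 2 from their littermate controls (n = 2 per group throughout). Ets1 codes for a DNA-binding factor of the ETS family. In both groups the cells had grown for 2 weeks with IL-7 and IL-33 on OP9-DL1, a stromal line that presents a Notch ligand, and RNA came from sorted ICOS-positive cells. The age of the mice, the tissue of origin and the way Ets1 was deleted were not stated in the sources used here.

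Glutathione is a small thiol made by glutamate-cysteine ligase and glutathione synthetase, and it is used by peroxidases, transferases and glutaredoxins. Thioredoxins carry electrons from NADPH, through thioredoxin reductases, to peroxiredoxins and other proteins with reactive cysteines. NRF2, the product of Nfe2l2, is held low by KEAP1 and, when released, binds antioxidant response elements together with small MAF proteins and raises many of these genes. Its activity is set largely by protein stability, so the Nfe2l2 transcript is not a measure of it.

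Ets1 read 138 and 180.2 intensity units in the Ets1-deleted arrays, against 1272 and 1231 in the control arrays, and its 4 probe sets were lower by 6.88- to 11.4-fold. The ILC2 factor gene Gata3 read 3032 and 2828 in Ets1-deleted arrays, against 2807 and 2741 in controls. All 10 measured genes of a 12-gene ILC2 list reached the dim limit, and 2 of the list, Il1rl1 and Areg, were not analysed here. In limma, 5 of these 10 were called higher, Rora, Il5 and Il13 among them, and 2 lower, Klrg1 by 1.60 and Icos by 0.38 on the log2 scale. Markers of other cells moved with the genotype. In a 16-gene myeloid list, 15 were measured, with summed levels of 5479 to 5721 intensity units in Ets1-deleted arrays and 2965 to 3279.7 in control arrays. All 11 tested myeloid genes were higher, while Itgam, Cd14, Elane and Cebpa stayed under the dim limit. The 14 mast cell and basophil genes summed to 4347 to 4523 units in Ets1-deleted arrays and 2700.1 to 2714 in controls, with 8 of 10 tested genes higher and Fcer1a, Ms4a2, Mcpt4 and Tpsab1 under the limit. Most of the rise in this sum came from Cpa3, with means of 1379 units in Ets1-deleted arrays and 82.1 in controls. Mcpt8, the brightest of the list, had means of 1145 and 1361 units and was not called. In 12 T cell genes, 10 measured, the sums were 5622 to 5757 units in Ets1-deleted arrays and 2863 to 2933 in controls, with 4 of 6 tested higher, 1 lower, and Cd4, Cd8a, Cd8b1 and Cd5 under the limit. The 4 higher were Cd3e, Cd3d, Cd3g and Cd247, from which the rise in this sum came. Zap70 was the gene called lower, on a probe set whose name marks it as open to matching other transcripts, and Cd6 was not called. The 12 genes of OP9 stroma and fibroblasts summed to 11144.5 to 11301 units in Ets1-deleted arrays and 10219.6 to 11608 in controls, most of it from Vim, with Timp3 called higher and Pdgfrb and Cxcl12 called lower among 10 tested genes. Of all tested genes, 13.9% were called higher and 12.8% lower. The control means of Adgre1 (78.9 units), Cpa3 (82.1), Mitf (83.1), Hdc (91.0) and Cd3e (92.2) were under the dim limit. These genes reached it through the Ets1-deleted arrays, so the filter favoured their calls and the marker counts that hold them. The part of these other cells in the results that follow was not tested. In a mixed sample, more cells of a type and more RNA per cell cannot be told apart.

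The antioxidant genes moved in both directions. In limma, 6 of the 29 genes were higher in the Ets1-deleted arrays (Srxn1, Mgst2, Gclc, Nqo1, Gsr and Glrx), 5 were lower (Prdx4, Nfe2l2, Glrx2, Gstm1 and Gpx7), and 18 did not pass an adjusted p of 0.05. Of all 10872 tested genes, 13.9% were called higher and 12.8% lower (26.7% in either direction), against 20.7% and 17.2% of these 29 genes, so the counts alone say little about the set. The counts by role given below are of few genes each and are to be read against the same 13.9% and 12.8%. At 1.5-fold or more, 4 of the 29 were higher and 0 were lower, where all tested genes gave 7.06% and 5.34%. The median log2 difference was 0.10 over the 29 genes and -0.0036 over all tested genes. The arrays of the groups did not overlap for 20 of the 29 genes, or 69.0%, close to the 62.6% among all tested genes. They lay higher in Ets1-deleted arrays for 14 (48.3%, where all tested genes gave 30.8%) and lower for 6 (20.7%, where all gave 31.7%). These counts read the tested probe set alone, and the 14 include Txn2 and Sod1, whose other bright probe sets did not all have that sign. The number called lower was 3 without Ets1-deleted array 1, without Ets1-deleted array 2 or without control array 2. With each gene's own variance alone, 0 of the 29 passed, and the smallest p that exact permutation of 2 against 2 arrays allows is 0.333.

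**Figure D1:**
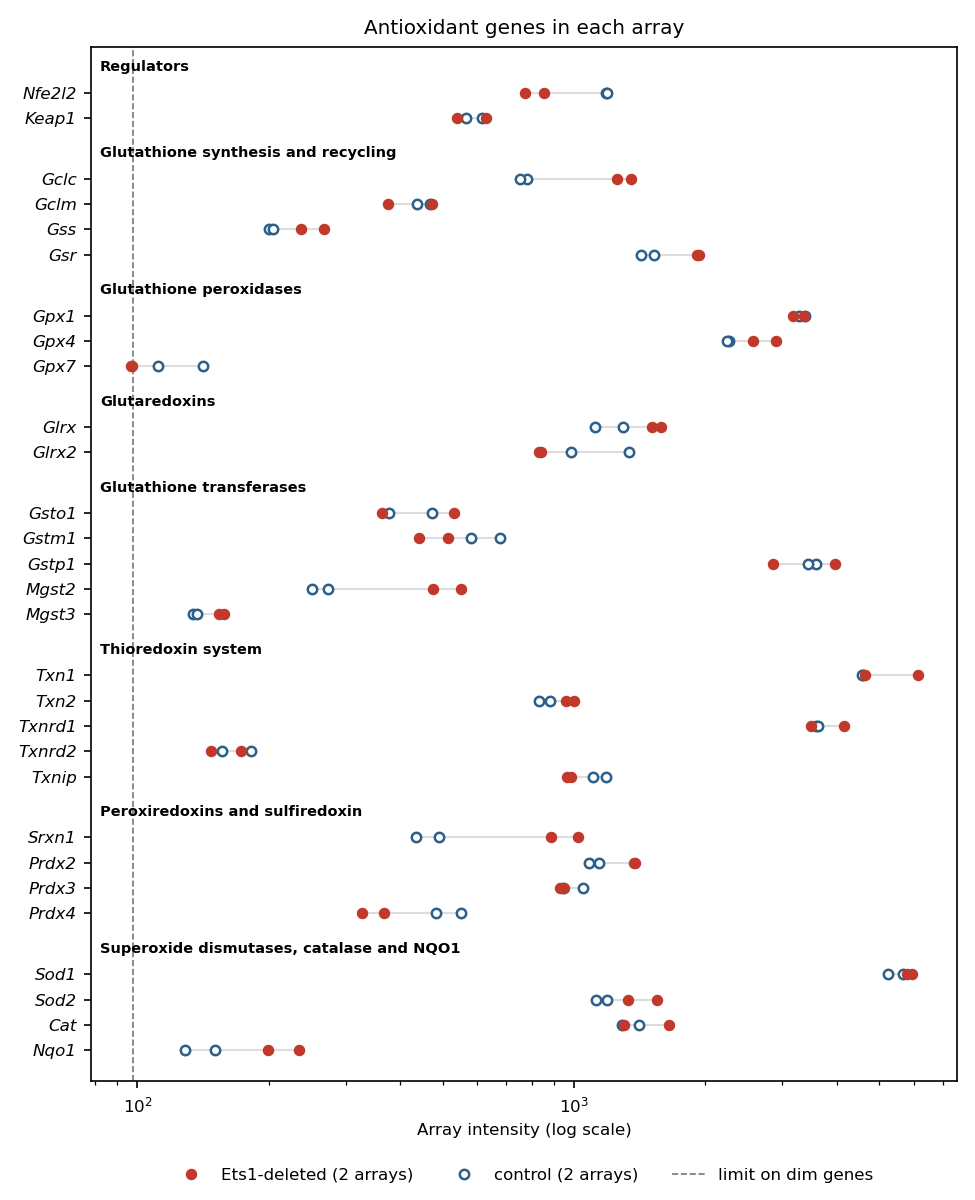
Intensity of the 29 antioxidant genes in each array, on a log axis, grouped by role, with filled points for the 2 Ets1-deleted arrays and open points for the 2 control arrays. The pairs of points lie farthest apart for Srxn1, Mgst2 and Gclc, and Gpx7 lies at the dashed limit on dim genes of 97.4 units.

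**Figure D2:**
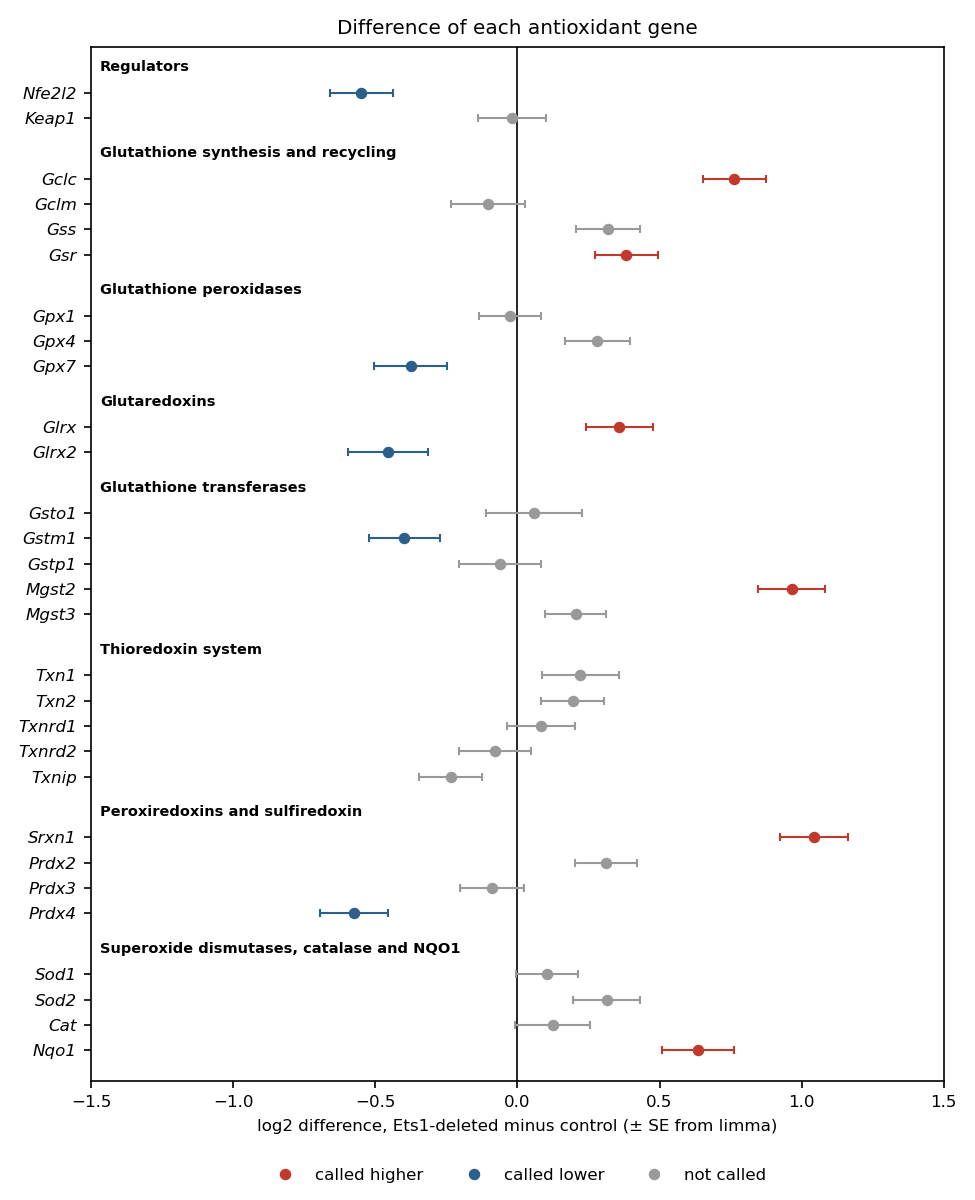
Log2 difference, Ets1-deleted minus control, of the same 29 genes with the SE from limma as bars. The 6 genes called higher reach 1.04 (Srxn1), the 5 called lower reach -0.57 (Prdx4), and 18 grey points did not pass.

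Of the 2 regulator genes, 0 rose and 1 fell. Nfe2l2, which encodes NRF2, read 772 and 855 intensity units in the Ets1-deleted arrays, against 1186 and 1191 in the controls. Both Ets1-deleted arrays lay below both controls, and Nfe2l2 fell by 0.55 ± 0.11 on the log2 scale (1.46-fold, limma, adjusted p = 0.00312). Keap1, whose product targets NRF2 for degradation, read 630 and 539 units in Ets1-deleted arrays and 566 and 615 in controls. The Keap1 arrays overlapped, with a log2 difference of -0.02 ± 0.12 (adjusted p = 0.938 in limma).

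Promoter windows, from 250 bases before to 50 bases after the annotated start, came from RefSeq on GRCm38.p6, and 29 of the 32 genes had at least 1. They are shown for Nfe2l2, which fell, and for Srxn1, which had the largest rise. Nfe2l2 lies on the minus strand (chr2:75704614-75704913) and Srxn1 on the plus strand (chr2:152105274-152105573), and capitals mark every letter match to the 3 motifs searched.
Nfe2l2: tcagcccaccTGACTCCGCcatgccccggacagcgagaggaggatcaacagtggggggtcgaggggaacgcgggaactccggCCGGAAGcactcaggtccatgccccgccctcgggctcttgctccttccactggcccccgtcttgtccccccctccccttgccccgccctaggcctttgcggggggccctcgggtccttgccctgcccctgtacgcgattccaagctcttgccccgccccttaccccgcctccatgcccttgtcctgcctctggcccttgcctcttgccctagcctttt
Srxn1: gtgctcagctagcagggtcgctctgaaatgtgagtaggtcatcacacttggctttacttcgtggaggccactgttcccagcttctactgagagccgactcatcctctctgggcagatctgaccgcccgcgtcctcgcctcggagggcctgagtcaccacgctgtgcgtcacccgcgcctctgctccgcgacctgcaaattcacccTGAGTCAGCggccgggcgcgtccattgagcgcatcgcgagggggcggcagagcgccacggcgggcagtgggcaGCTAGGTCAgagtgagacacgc
The motifs were TGACNNNGC, a core of the antioxidant response element, TGANTCAGC, a core for NRF2 or BACH1 with small MAF proteins, and CCGGAAG, an ETS core, each on both strands. The first and second motifs match the same letters in 149 windows of all genes. The Nfe2l2 window holds TGACNNNGC beginning 240 bases before the start and CCGGAAG 168 bases before it. The Srxn1 window holds TGANTCAGC 45 bases before the start and TGACNNNGC on the opposite strand beginning 28 bases after it. The 29 genes with a window are not the same as the 29 genes analysed. They lack Gclc and Gsr, and include Prdx1 and Prdx5, which were not tested. Among the 29 genes with a window, 6 held TGACNNNGC (20.7%), 3 held TGANTCAGC (10.3%) and 3 held CCGGAAG (10.3%). Each motif was held by 1 of the 2 untested genes. Of the 4 genes called higher with a window, 1 held TGACNNNGC, 1 held TGANTCAGC and 0 held CCGGAAG. Of the 5 called lower, 1, 0 and 1 held them in the same order, and of the 18 not called 3, 1 and 1. All matches of called genes were in Srxn1 or Nfe2l2. The window of Mgst2, which had the next largest rise after Srxn1, held 0. Of all 27025 genes with windows, 14.0%, 1.37% and 9.93% held these motifs in the same order, and of the 8830 tested genes with windows 17.1%, 1.22% and 21.1% did. The TGANTCAGC matches were in Srxn1, Gstp1 and Prdx1. The motif TGANTCAGC was added after the Srxn1 window had been read, and a match is a description of letters, not of binding.

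In glutathione synthesis and recycling, 2 of 4 genes rose and 0 fell. Gclc, the catalytic subunit of glutamate-cysteine ligase and the rate-limiting enzyme of glutathione synthesis, read 1253 and 1348 intensity units in the Ets1-deleted arrays, against 780.1 and 752 in the controls. The groups were well apart, and Gclc rose by 0.76 ± 0.11 on the log2 scale (1.70-fold, limma, adjusted p = 0.00027). Gclm, the modifier subunit that makes the ligase more efficient, read 375 and 473 units in Ets1-deleted arrays and 438 and 468 in controls. The Gclm arrays overlapped (log2 difference -0.10 ± 0.13, adjusted p = 0.616 in limma), and its dimmer probe set gave 0.38. Gss, which adds glycine in the last step, read 267 and 237 units in Ets1-deleted arrays and 200.1 and 204 in controls. The Gss arrays did not overlap, but its log2 difference of 0.32 ± 0.11 missed the threshold (adjusted p = 0.0579 in limma) and passed without Ets1-deleted array 2 (0.40, adjusted p = 0.0382). Gsr, which regenerates glutathione from its disulfide, read 1931 and 1909 units in Ets1-deleted arrays, against 1420.1 and 1526 in controls. Gsr rose by 0.38 ± 0.11 (limma, adjusted p = 0.0221). The Gsr call was lost in limma without Ets1-deleted array 1 (0.37, adjusted p = 0.0601), control array 1 (0.33, 0.167) or control array 2 (0.44, 0.0506), and with the array floor subtracted (0.40, 0.0683).

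Of the 3 glutathione peroxidase genes, 0 rose and 1 fell. Gpx1, the main cytosolic form, read 3167 and 3362 intensity units in Ets1-deleted arrays and 3273 and 3380.1 in controls. Its log2 difference was -0.03 ± 0.11, with overlapping arrays (adjusted p = 0.891 in limma). Gpx4, which reduces lipid peroxides in membranes, read 2907 and 2567 units in Ets1-deleted arrays, both above the 2259 and 2237 of the controls. The Gpx4 difference of 0.28 ± 0.11 did not pass (limma, adjusted p = 0.0912), and the mean over its 2 probe sets gave 0.32 with an adjusted p of 0.0491. Gpx7, an enzyme of the endoplasmic reticulum, read 97.2 and 96.5 units in Ets1-deleted arrays, both under the dim limit, against 112 and 141 in controls. Gpx7 passed the filter through the controls alone, which favoured its call, and its log2 difference of -0.38 ± 0.13 was just past the threshold (limma, adjusted p = 0.049). That call was lost in limma without Ets1-deleted array 1 (-0.38, adjusted p = 0.0896), Ets1-deleted array 2 (-0.37, 0.0938) or control array 2 (-0.21, 0.474) and without the filter (adjusted p = 0.0834), and the difference was -0.75 with the array floor subtracted.

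Of the 2 glutaredoxin genes, 1 rose and 1 fell. Glrx, the cytosolic enzyme that removes glutathione from protein cysteines, read 1583 and 1505 intensity units in Ets1-deleted arrays, against 1298 and 1117 in controls. Glrx rose by 0.36 ± 0.12 (limma, adjusted p = 0.0409). Glrx2, its mitochondrial relative, read 831 and 842 units in Ets1-deleted arrays, against 987 and 1333 in controls. Both Ets1-deleted arrays lay below the controls, whose values were far apart, and Glrx2 fell by 0.46 ± 0.14 (limma, adjusted p = 0.0306). In limma the Glrx call was lost without Ets1-deleted array 1 (0.32, adjusted p = 0.124), Ets1-deleted array 2 (0.40, 0.0542) or control array 2 (0.25, 0.350), without the filter (0.0524) and with the floor subtracted (0.103). The Glrx2 call was lost without Ets1-deleted array 1 (-0.45, adjusted p = 0.0627) or control array 2 (-0.24, 0.381), without the filter (0.0738) and with the floor subtracted (0.0856, all limma).

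Of 5 glutathione transferase genes, 1 rose and 1 fell. Mgst2, a microsomal enzyme that can also join glutathione to leukotriene A4, read 549.8 and 476 intensity units in Ets1-deleted arrays, against 252 and 273 in controls. Every Ets1-deleted value lay far above the controls, and Mgst2 rose by 0.97 ± 0.12 on the log2 scale (1.95-fold, limma, adjusted p = 7.11e-05). Mgst3, a related microsomal enzyme, read 158 and 154 units in Ets1-deleted arrays and 134 and 137 in controls. Those values were close together, and the Mgst3 difference of 0.20 ± 0.11 did not pass (adjusted p = 0.194 in limma). Gstm1, a cytosolic mu class enzyme, read 514 and 441 units in Ets1-deleted arrays, against 677 and 582 in controls. Gstm1 fell by 0.40 ± 0.13 (limma, adjusted p = 0.0341) on a probe set whose name marks it as open to matching other transcripts. Its call was lost in limma without Ets1-deleted array 2 (-0.29, adjusted p = 0.165) or control array 1 (-0.29, 0.248), with the mean over 3 probe sets (-0.21, 0.185), without the filter (0.0591) and with the floor subtracted (0.0812). Gstp1, the pi class enzyme, read 3955 and 2860.1 units in Ets1-deleted arrays, on either side of the 3578 and 3439 of the controls. Gsto1, an omega class enzyme, overlapped as well, with 531 and 363 units in Ets1-deleted arrays and 472 and 378 in controls. In limma the differences of Gstp1 and Gsto1 were -0.06 ± 0.14 and 0.06 ± 0.17 (adjusted p of 0.808 and 0.848). The names of the probe sets tested for Gsto1 and Gpx4 mark them in the same way as that of Gstm1.

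In the thioredoxin system, 0 of 5 genes passed the limma test, and 0 of the 5 had an unadjusted p under 0.05. Txn1, the cytosolic thioredoxin, read 6124 and 4649.8 intensity units in Ets1-deleted arrays and 4589 and 4564 in controls. Ets1-deleted array 1 was high while array 2 lay beside the controls, and the log2 difference was 0.22 ± 0.14 (limma, adjusted p = 0.265). Without Ets1-deleted array 2 it was 0.42 and passed (adjusted p = 0.031 in limma). Txn2, the mitochondrial thioredoxin, read 958 and 999 units in Ets1-deleted arrays and 832 and 879.8 in controls, a difference of 0.19 ± 0.11 (adjusted p = 0.226 in limma). Its other probe sets went the other way, with -0.31 and -0.20. Txnrd1, the cytosolic reductase and a known NRF2 target, read 3494 and 4152 units in Ets1-deleted arrays, on both sides of the 3583 and 3616 of the controls. Its log2 difference was 0.08 ± 0.12 (limma, adjusted p = 0.671), and that of Txnrd2, the mitochondrial reductase, was -0.08 ± 0.13 (adjusted p = 0.703). Txnip, a thioredoxin-binding protein that also limits glucose uptake, read 962 and 982 units in Ets1-deleted arrays, against 1103 and 1187 in controls. These arrays did not overlap, yet the difference of -0.24 ± 0.11 did not pass (limma, adjusted p = 0.14).

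Among 4 measured genes of peroxiredoxins and sulfiredoxin, 1 rose and 1 fell. Srxn1, sulfiredoxin, which repairs peroxiredoxins that hydrogen peroxide has overoxidised, read 886 and 1022 intensity units in Ets1-deleted arrays, against 435 and 489 in controls. The groups were widely apart, and Srxn1 rose by 1.04 ± 0.12 on the log2 scale (2.06-fold, limma, adjusted p = 4.59e-05). Prdx2, a cytosolic peroxiredoxin, read 1379.6 and 1374 units in Ets1-deleted arrays, above the 1141 and 1080.2 of the controls. Its difference of 0.31 ± 0.11 missed the threshold (limma, adjusted p = 0.0541) and passed when its 2 probe sets were averaged (0.40, adjusted p = 0.00939) and without the filter (adjusted p = 0.0423). Prdx3, of mitochondria, read 927 and 947 units in Ets1-deleted arrays and 944 and 1051 in controls (log2 difference -0.09 ± 0.11, adjusted p = 0.621 in limma). Prdx4, which acts in the endoplasmic reticulum and takes part in oxidative protein folding, read 367 and 327 units in Ets1-deleted arrays, against 483 and 549.9 in controls. Both Ets1-deleted arrays were below both controls, and Prdx4 fell by 0.57 ± 0.12 (1.49-fold, limma, adjusted p = 0.00351).

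Of the superoxide dismutases, catalase and the NRF2 target Nqo1, 1 of 4 genes rose and 0 fell. Nqo1, a quinone reductase, read 235 and 199.5 intensity units in Ets1-deleted arrays, against 151 and 129 in controls. Its arrays did not overlap, and Nqo1 rose by 0.64 ± 0.13 on the log2 scale (1.55-fold, limma, adjusted p = 0.0027). Sod2, the mitochondrial dismutase, read 1332 and 1551 units in Ets1-deleted arrays, above the 1125 and 1188 of the controls. The Sod2 difference of 0.31 ± 0.12 did not pass (limma, adjusted p = 0.0697) but passed without Ets1-deleted array 1 (0.42, adjusted p = 0.0325). Sod1, the cytosolic dismutase, read 5788 and 5930.5 units in Ets1-deleted arrays and 5666 and 5247 in controls, a difference of 0.10 ± 0.11 (adjusted p = 0.544 in limma). The name of this probe set also marks it as open to matching other transcripts. The next brightest Sod1 probe set gave -0.01 with overlapping arrays, and dimmer ones over the limit gave 0.41 and -0.10. Cat, peroxisomal catalase, read 1653 and 1303 units in Ets1-deleted arrays and 1411 and 1285 in controls, with overlap and a difference of 0.12 ± 0.13 (limma, adjusted p = 0.544).

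Further probe sets of the same genes read the same 4 arrays and were compared when the brightest was chosen, so their values are given as a description. Among the 6 genes called higher, 4 had several probe sets over the dim limit, and all of these had the sign of the tested one. The 4 probe sets of Srxn1 gave log2 differences of 0.59 to 1.04, and the others of Gclc, Gsr and Glrx gave 0.54, 0.67 and 0.25. Of the 5 genes called lower, 3 had several, with the same sign throughout. Prdx4 gave -0.36 to -0.57 over 3 probe sets and Glrx2 -0.13 to -0.46, while the least-moved Gstm1 probe set gave -0.02. Mgst2, Nqo1, Nfe2l2 and Gpx7 each rest on 1 bright probe set. Among the 18 genes not called, 13 had several, and in 8 of these all signs agreed.

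**Figure D3:**
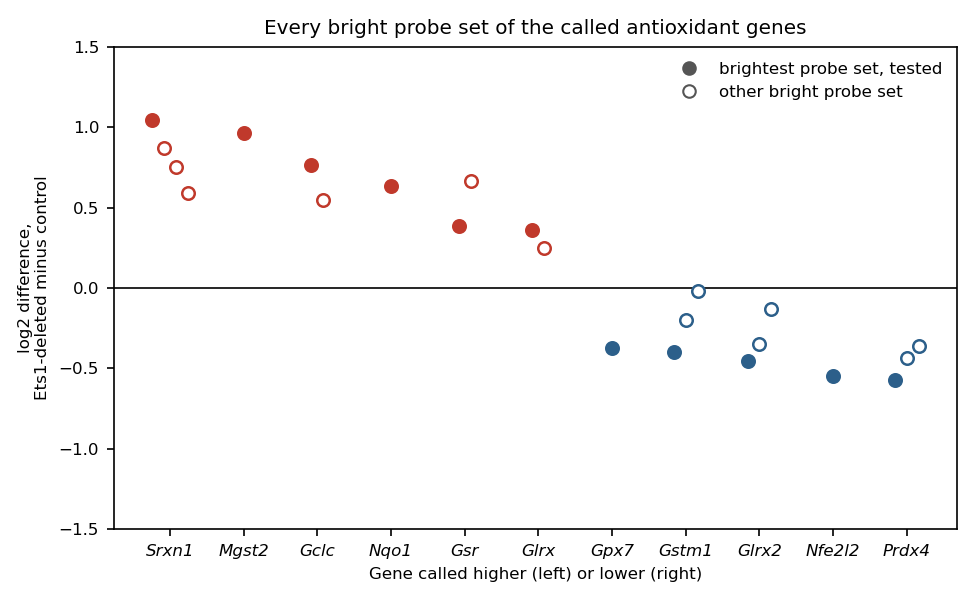
Log2 difference, Ets1-deleted minus control, of each probe set over the dim limit for the 11 called genes, filled for the tested probe set and open for the others. All points of a gene lie on the same side of 0, and Gstm1 has a probe set at -0.02.

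A list of 81 other genes of the same pathways was measured for comparison. Of the 64 that were tested, 18 rose (28.1%, where all genes gave 13.9%) and 4 fell (6.25%, where all genes gave 12.8%), with a median log2 difference of 0.13. Slc7a11 and Cth reached the dim limit through the Ets1-deleted arrays alone and Gstm5 through the controls alone, so their calls were favoured by the filter. Without these 3 genes, 16 of 61 rose and 3 fell. A further 13 measured genes were under the dim limit and 4 were not analysed here. Of 15 tested genes for partners of NRF2, its targets and related transporters, 7 rose and 0 fell (6 of 14 without Slc7a11). Slc7a11, the cystine importer that feeds glutathione synthesis, read 255 and 211 intensity units in Ets1-deleted arrays, against 73.0 and 62.4 in controls, which were below the dim limit. The log2 difference of Slc7a11 was 1.78. Its partner chain Slc3a2 rose by 0.87 ± 0.12 (limma, adjusted p = 0.000156). Hmox1, haem oxygenase and an NRF2 and BACH1 target, read 1102 and 1073 units in Ets1-deleted arrays, against 557 and 440.3 in controls. Hmox1 rose by 1.14 ± 0.13, the small MAF genes Maff and Mafk by 1.64 ± 0.14 and 0.38 ± 0.11, the NRF2 relative Nfe2l1 by 0.62 ± 0.12 and the glutathione conjugate exporter Abcc1 by 0.42 ± 0.12. Calls were lost in limma for Mafk without Ets1-deleted array 2 (0.35), control array 1 (0.43) or control array 2 (0.32), with adjusted p of 0.0784, 0.0513 and 0.193, and with the floor subtracted (0.0575). They were lost for Abcc1 without Ets1-deleted array 2 (0.34) or control array 2 (0.36), with adjusted p of 0.0875 and 0.127, and with the floor subtracted (0.0525).

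In glutathione turnover, 3 of 10 tested genes rose (2 of 9 without Cth) and 1 fell, where all tested genes gave 13.9% and 12.8%. Chac1, which cleaves glutathione inside cells, read 751 and 612 intensity units in Ets1-deleted arrays, against 172 and 199 in controls. Chac1 rose by 1.88 ± 0.13 (limma, adjusted p = 6.67e-07). Cth, which makes cysteine from cystathionine, read 245 and 201 units in Ets1-deleted arrays, against 84.8 and 73.0 in controls, both under the dim limit. The log2 difference of Cth was 1.49. Anpep, a peptidase that trims extracellular glutathione fragments, read 171 and 146 units in Ets1-deleted arrays, against 106 and 90.5 in controls. Control array 2 was thus under the dim limit, and Anpep rose by 0.69 ± 0.13 (limma, adjusted p = 0.00153). Ggt5, a gamma-glutamyl transferase, fell by 0.48 ± 0.14 (limma, adjusted p = 0.0202), a call lost without Ets1-deleted array 2 (-0.28, adjusted p = 0.146) and without the filter (0.0518). The name of the tested Ggt5 probe set marks it, like that of Gstm1, as open to matching other transcripts. With the array floor subtracted the log2 differences were 3.41 for Slc7a11, 2.90 for Cth and 1.30 for Anpep.

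In the other glutathione transferases and peroxidases, 1 of 9 tested genes rose and 3 fell (2 of 8 without Gstm5). All tested genes gave 13.9% higher and 12.8% lower. Gstt1, a theta class transferase, read 703 and 771 intensity units in Ets1-deleted arrays, against 1018 and 1299 in controls. Gstt1 fell by 0.64 ± 0.13 and Gstk1, the kappa class enzyme, by 0.60 ± 0.11 (limma, adjusted p of 0.00338 and 0.00202). Gstm5, another mu class gene, had a log2 difference of -1.14, with 96.1 and 76.8 units in Ets1-deleted arrays, under the dim limit, against 160.3 and 224 in controls. Gpx8, a peroxidase of the endoplasmic reticulum, rose by 0.58 ± 0.11 (limma, adjusted p = 0.00229). With the array floor subtracted, Gstm5 and Gpx8 gave -2.20 and 0.97.

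Among 19 tested genes of other thioredoxin fold proteins and reductases, 3 rose and 0 fell, where all tested genes gave 13.9% and 12.8%. Nxn, nucleoredoxin, read 720.2 and 658 intensity units in Ets1-deleted arrays, against 322 and 347 in controls, and rose by 1.04 ± 0.11 (limma, adjusted p = 2.78e-05). Txndc12, of the endoplasmic reticulum, rose by 0.53 ± 0.13 and Txnl1, a thioredoxin-like protein, by 0.41 ± 0.11 (limma, adjusted p of 0.00892 and 0.0143). The Txndc12 call was lost in limma without Ets1-deleted array 1 (0.39, adjusted p = 0.0573) or control array 2 (0.43, 0.0537). That of Txnl1 was lost without control array 1 (0.42, adjusted p = 0.0608) or control array 2 (0.40, 0.0801) and with the floor subtracted (0.0517, all limma).

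Of 11 tested genes in a list for the supply of NADPH, the reductant of both systems, 4 rose and 0 fell. All tested genes gave 13.9% higher and 12.8% lower. The list also holds genes whose products do not make NADPH themselves, Nadk among them. Nadk, the kinase that makes NADP, read 729 and 710.4 intensity units in Ets1-deleted arrays, against 551 and 465 in controls, and rose by 0.51 ± 0.12 (limma, adjusted p = 0.00741). Pgls of the pentose phosphate pathway rose by 0.46 ± 0.11, mitochondrial Idh2 by 0.51 ± 0.16 and Mthfd2 of the folate cycle by 0.44 ± 0.12 (limma, adjusted p of 0.0102, 0.0291 and 0.0194). Each of these calls was lost in limma without some array. For Nadk this was control array 2 (0.38, adjusted p = 0.0963), and for Pgls control array 1 (0.37, 0.108). Mthfd2 lost it without Ets1-deleted array 1 (0.42, adjusted p = 0.0547) or control array 1 (0.30, 0.228) and with the floor subtracted (0.0652, all limma). Idh2 lost it without Ets1-deleted array 2 (0.36, adjusted p = 0.134) or control array 1 (0.29, 0.252), without the filter (0.0855), with the floor subtracted (0.0805) and when its probe sets were averaged (0.09, adjusted p = 0.579, all limma).

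**Figure D4:**
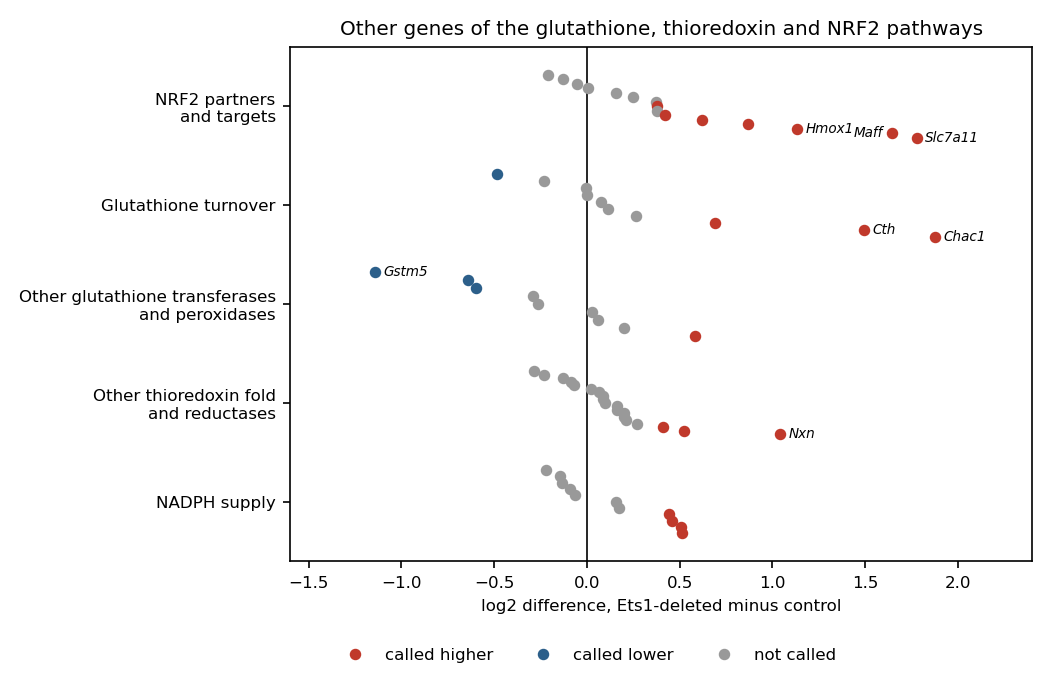
Log2 difference, Ets1-deleted minus control, of the 64 tested other genes in 5 lists, each point a gene, coloured by its call. The NRF2 partners and targets hold 7 of the 18 genes called higher, and 3 of the 4 called lower are glutathione transferases. Slc7a11, Cth and Gstm5 reached the dim limit in 1 group alone.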

How the data were processed

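The arrays were labelled with biotin after RNA amplification, per the labels' protocols. The authors deposited an intensity per probe set, computed with RMA, per the submitters' processing notes. Software, version and scaling were not stated there. The intensities run from 39.5 to 23291 and were read as linear, which is an inference, since RMA commonly gives log2, and then turned into log2. Array medians lay between 96.5 and 97.7 units, so no further normalization was applied. RMA values level off near the lower end, which understates folds of dim genes.

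Of 45101 probe sets, 34945 had a single symbol in the platform annotation, 932 had several, 9160 were not listed, and the other 64 were array controls, which were left out. Differences, Ets1-deleted minus control, were fitted with limma 3.58.1 under R 4.3.3 (lmFit, then eBayes). The two-sided p-values were adjusted by Benjamini-Hochberg over the 10872 genes tested, and the threshold was 0.05. It has 2 residual and 9.77 prior degrees of freedom. The genes named are all 32 of the set and, of the other pathway genes, those past the threshold and up to 2 of smallest p in each list. Lists were counted and given no test. The members and lists were chosen with earlier results of these data known. The alternatives are those of the closing section. No source states whether the arrays of a group are separate animals or cultures. The p-values therefore cover the spread between these samples alone, which may be technical, and the number of arrays limits the precision.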

Additional observations from a re-analysis of the deposited data

How the results depend on the processing

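Across 12 alternatives, the calls of Srxn1, Mgst2, Gclc and Nqo1 (higher) and Nfe2l2 and Prdx4 (lower) were kept wherever the gene was tested, except with each gene's own variance. Under that setting 13 genes were called in all, against 2900, with 0 antioxidant genes higher, 0 lower, and 0 and 0 other pathway genes. It is an ordinary t-test per gene, without eBayes, and gave Ets1 an adjusted p of 0.0944 (-2.99). The number of antioxidant genes called lower, 5, was 2 without the filter on dim genes and 3 with the array floor subtracted (each array's 5th percentile, then a floor of 16 units). It was 3 to 4 with an array left out, and the number called higher, 6, was 4 to 7. Of the other pathway genes, 14 to 17 were called higher and 3 to 5 lower with an array left out, and 1 lower with the stricter filter (70th percentile). Under the stricter filter Ggt5, Gstk1 and Gstm5 were not tested, and Gstt1 was still called lower. In the fits with an array left out, the lone array was assumed to be as variable as those of the other genotype. With the replicate number as a block, 9 antioxidant genes were called higher and 5 lower, Gss, Prdx2 and Sod2 being added. Deviations of same-numbered arrays from their group means correlated at 0.17, which with 2 pairs does not show that the numbers pair the samples. A further quantile normalization and an intensity trend in the variance kept both counts. The mean over probe sets gave 9 higher and 4 lower. Taking the values as log2 was not run, since they were read as linear. Beyond the genes that the stricter filter left out, the cause of these changes was not tested.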
